A study of Mus musculus with 5 samples.

Results

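Type I interferon response genes were followed through 5 single-cell RNA libraries of sorted mouse liver cells. The 34 listed genes were taken by name, without use of their measured values, and 33 of them had a row among the 31053 genes of the files. Mx2 had none and is not analysed here. A mean of at least 2 unique molecular identifiers (UMIs) in 1000000 over the 5 libraries was reached by 31 of the 33, against 11932 of all genes. Mx1 and Oas3 were below it and are given with the others.

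All animals were male Rosa26mTmG;Col1a1-Cre mice on the C57BL/6J background, in which cells that have expressed Cre from the Col1a1 promoter are marked by green fluorescent protein (GFP). The DEN+WAD mice received the liver carcinogen diethyl nitrosamine (DEN, 10 mg/kg, intraperitoneal) at 2 weeks of age, and from 6 weeks a liquid Western alcohol diet (WAD) with 3.5% v/v ethanol for 5 months. The chow mice received saline and chow over the same ages, and no group had DEN or the diet alone. Liver cells freed with pronase and collagenase were sorted on GFP and on the autofluorescence of vitamin A (VitA), which hepatic stellate cells store, in a study of how stellate cells promote liver tumors. Sorted Col1a1+ cells of the VitA+ gate and of the VitA- gate came from both DEN+WAD and chow livers, while those labelled VitA-Col1a1- came from DEN+WAD livers only. Each of these 5 groups was 1 library, and the number of animals behind a library is not given in the sources used here. No difference between groups therefore has a replicate check, no p-value is given, and every interval below covers counting error only.

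The libraries held 259 to 10481 cells and 6145748 to 149936344 UMIs, with a median of 9106 to 24077 UMIs per cell. The VitA+Col1a1+ chow library was the smallest, so its counts are the least precise. At most 21 cell barcodes were shared by any pair of libraries. Lrat, a retinol esterification enzyme of stellate cells, was at 1497 and 1931 counts per 1000000 (CPM, a gene's UMIs over all UMIs of a library's cells) in the VitA+ libraries and at 380 to 611 CPM in the VitA- ones. The library labelled VitA-Col1a1- held Col1a1 RNA at 1062 CPM, within the range of the sorted Col1a1+ libraries (99.4 to 1834 CPM), which goes against its label, so it is called by its label throughout. It alone held macrophage RNA: the 8 macrophage markers summed to 3677 CPM there and to at most 0.651 CPM in the other 4 libraries, where C1qa had 0 to 6 UMIs.

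Type I interferons signal through the receptor pair Ifnar1 and Ifnar2 and the kinases Jak1 and Tyk2 to a transcription complex that holds Stat2 and Irf9 and binds response elements near the start of its target genes. The targets hinder viruses at several steps: Ifitm3 at entry, the OAS and IFIT families and Eif2ak2 at RNA stability and translation, and Rsad2 at RNA synthesis, while Ifih1 and Ddx58 detect viral RNA and Irf7 feeds back on interferon synthesis. Isg15 is a ubiquitin-like protein that is attached to other proteins, Herc6 attaches it and Usp18 removes it and restrains the receptor. Many of the genes lie in families: Ifit1, Ifit2, Ifit3 and Ifit3b lay within 99.3 kb on chromosome 19 (chr19:34550694-34650009, mm10), and Oas1a, Oas2 and Oas3 within 177 kb on chromosome 5. Reads of near-identical copies (Ifit3 and Ifit3b, Oas1a and Oas1g, Trim30a and Trim30d, and the Ifi200 genes around Ifi206) may have been split between them or dropped, so single values of these genes are uncertain.

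The response element was looked for as GAAANNGAAA on either strand in RefSeq promoters of GRCm38.p6, from 250 bases before to 50 after each gene's start. A promoter was given for 26 of the 34 genes, and 16 of the 26 (61.5%, exact 95% interval 40.6 to 79.8) held the motif, against 1079 of all 27025 genes with a promoter (3.99%). The stretches below are those of 8 genes whose levels differed most between libraries or that were detected together in cells, and the capitals mark the motif:
Ifit1, chr19:34640775-34640804, minus strand: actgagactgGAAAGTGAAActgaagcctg
Ifit3, chr19:34583363-34583392, minus strand: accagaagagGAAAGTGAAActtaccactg
Ifit3b, chr19:34607759-34607788, minus strand: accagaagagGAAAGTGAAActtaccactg
Isg15, chr4:156200871-156200900, minus strand: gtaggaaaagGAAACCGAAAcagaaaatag
Oas1a, chr5:120907526-120907555, minus strand: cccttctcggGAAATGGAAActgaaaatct
Oas3, chr5:120777715-120777744, minus strand: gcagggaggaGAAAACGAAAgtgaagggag
Rsad2, chr12:26456553-26456582, plus strand: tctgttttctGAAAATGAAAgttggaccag
Ifi206, chr1:173491339-173491368, minus strand: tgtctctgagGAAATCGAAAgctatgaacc
Each of these lies before the start of its gene. Ifit3 and Ifit3b had the same 30 letters here, and the Isg15 motif overlapped another match on either side. The motif was also present for Trim30a, Ifih1, Ddx58, Stat2, Bst2, Ddx60, Ifitm3 and Eif2ak2. A match describes the letters and was not read as a binding site, and a window without it says nothing of the factor.

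Among the 4 Col1a1+ libraries, the VitA-Col1a1+ chow cells held the least RNA of nearly every member. They were lowest for 30 of 33 genes, with an interval apart from the other 3 libraries for 25, and the exceptions were Oas3, at 0 UMIs in both chow libraries, and Bst2 and Eif2ak2. The VitA+Col1a1+ DEN+WAD cells were highest for 18 genes and the VitA+Col1a1+ chow cells for 9. Summed over the 33 members, the level was 7919.8 CPM in VitA+ DEN+WAD, 5575 in VitA+ chow, 5641 in VitA- DEN+WAD, 3512 in VitA- chow and 5225 CPM in the library labelled VitA-Col1a1-. Ifitm3 alone gave 46.8 to 56.5% of these UMIs. Without Ifitm3 and Bst2, which many resting cells express, the sums were 3207, 2668, 2158, 1204 and 1922 CPM in the same order, again with VitA- chow lowest. In bulk sums such as these, fewer cells that express a gene and less RNA per cell cannot be told apart.

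**Figure D1:**
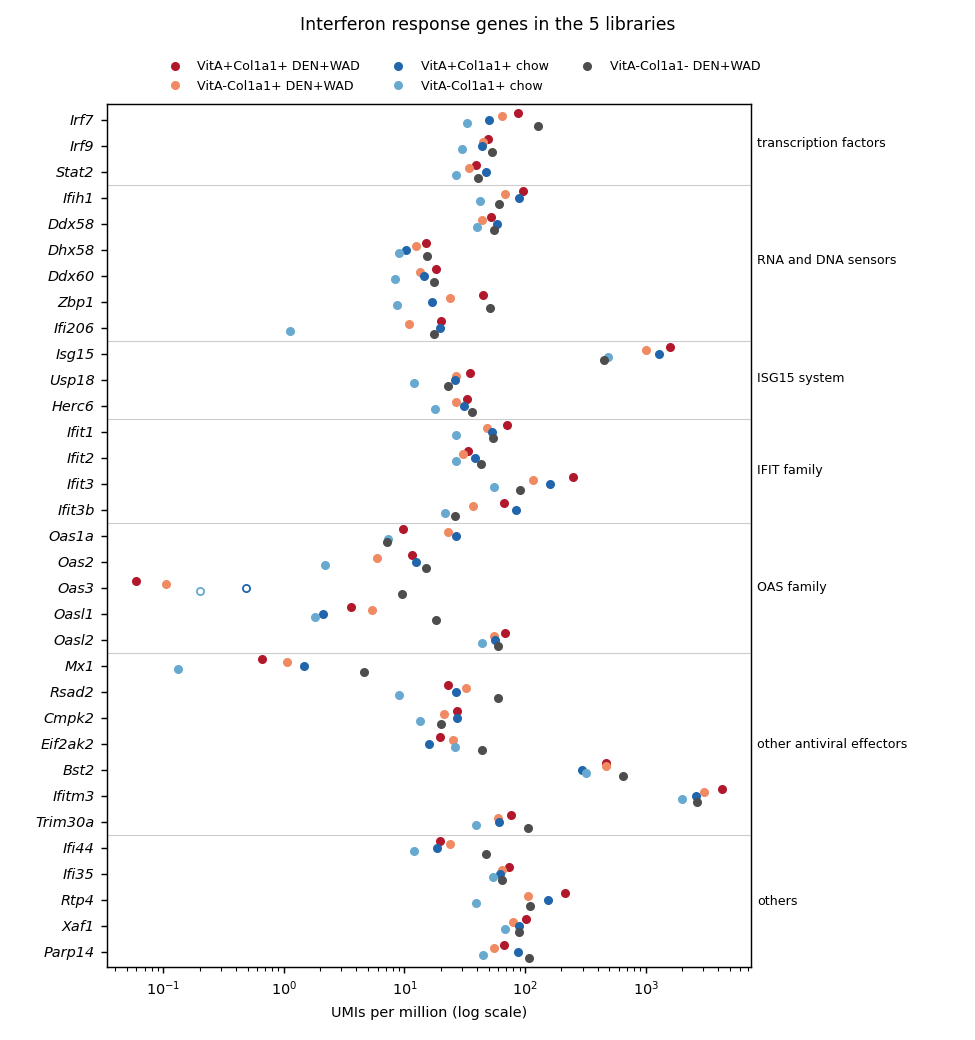
Level of each of the 33 measured members (CPM, log axis) in the 5 libraries, grouped by role, with 1 point per library; open circles mark genes with 0 UMIs, drawn at the level of 3 UMIs. The VitA-Col1a1+ chow points are the lowest of the 4 Col1a1+ libraries for 30 of the 33 genes, and Oas3 is separated from the rest by its level in the library labelled VitA-Col1a1- (9.50 CPM against at most 0.105).

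Isg15 and Ifitm3 were the most abundant members in each Col1a1+ library, while Bst2 was above Isg15 in the library labelled VitA-Col1a1-. Isg15 was at 1578 CPM in VitA+ DEN+WAD, 1282 in VitA+ chow, 999.7 in VitA- DEN+WAD, 484 in VitA- chow and 447 CPM in the library labelled VitA-Col1a1-, so both VitA+ libraries were above all others. Ifitm3 stood at 4246, 2611, 3015, 1985 and 2652 CPM in the same order, with both DEN+WAD libraries of the Col1a1+ sorts above both chow ones. Bst2 (tetherin, which holds budding virus at the membrane) had 466, 297, 468, 322 and 651 CPM, which followed the treatment and not the VitA gate. Eif2ak2, the RNA-activated kinase that stops translation, had 19.6, 15.9, 25.3, 26.3 and 44.2 CPM, which followed the gate. At full depth, Ifitm3 was found in 10430 of 10481 VitA+ DEN+WAD cells, Isg15 in 9873, Ifit3 in 8028 and Mx1 in 54.

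Of the members with less than 2-fold differences in both regimen comparisons, 10 are given here by their range. Among the 4 Col1a1+ libraries Irf9 (of the interferon-activated transcription complex) was at 30.2 to 49.5 CPM, Ifit1 at 26.7 to 71.2, Oasl2 at 44.3 to 68.5, Ddx58 (the RNA sensor RIG-I) at 40.1 to 58.3, Ddx60 (a helicase) at 8.34 to 18.3, Dhx58 at 9.07 to 15.2 and Herc6 at 17.9 to 32.7 CPM. Trim30a, which dampens inflammatory signaling, was at 39.0 to 76.6 CPM, Xaf1, a partner of the apoptosis inhibitor XIAP, at 68.1 to 101 CPM, and Ifi35 at 53.7 to 73.4 CPM. For each of these 10 genes the lowest level was that of VitA- chow.

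The 2 regimens were compared first in the VitA-Col1a1+ cells, where nearly all members were higher after DEN+WAD. Of the 32 with a ratio, 31 were higher in DEN+WAD and 30 of these had an interval above 1, the median log2 ratio was 0.69 against -0.02 over all genes, and 11 were at least 2-fold higher and 0 at least 2-fold lower. Over all genes, 6.32% were at least 2-fold higher and 5.31% at least 2-fold lower. By role, the median log2 ratio was 1.5 for the OAS family, 1.05 for the ISG15 system, 0.83 for the IFIT family, 0.69 for the sensors, 0.62 for the other antiviral effectors, 0.55 for the transcription factors and 0.30 for the 5 other genes. Eif2ak2 was the 1 member that was not higher, at 0.959-fold (0.855 to 1.08).

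Ifi206, a DNA-sensor family gene, had the largest difference in VitA-Col1a1+ cells. It was at 10.9 CPM after DEN+WAD and at 1.13 CPM (17 UMIs) in chow, 9.61-fold (95% interval 5.94 to 16.6), while the VitA+ libraries had 20.0 and 19.7 CPM and the library labelled VitA-Col1a1- had 17.5 CPM. Thus 1 library of the 5, VitA- chow, was low for this gene. Rsad2 (viperin, which makes a chain-terminating nucleotide) was at 32.6 and 9.0 CPM, 3.62-fold (3.04 to 4.35). Oas1a, an enzyme that makes the activator of RNase L, was at 22.9 and 7.27 CPM, 3.15-fold (2.58 to 3.87), and Oas2 at 5.94 and 2.20 CPM, 2.70-fold (1.88 to 4.0). Zbp1, a sensor of Z-form nucleic acid that can trigger necroptosis, was at 23.8 and 8.60 CPM, 2.77-fold (2.31 to 3.35). Rtp4 (105.7 and 38.8 CPM, 2.72-fold), Usp18 (26.6 and 11.9 CPM, 2.23-fold), Ifit3 (115 and 55 CPM, 2.09-fold) and Isg15 (2.07-fold) completed the larger differences on well-counted genes.

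Oasl1, which restrains Irf7 translation, had 5.33 and 1.80 CPM (254 and 27 UMIs), 2.96-fold (1.99 to 4.58). Mx1, of which C57BL/6 mice carry a defective allele, had 51 UMIs in 21 cells against 2 UMIs, 8.03-fold (2.11 to 68.1). Both rested in part on a few cells: 10 cells with 20 or more members each, which are described further on, held 58.8% of the Mx1 UMIs and 30.4% of the Oasl1 UMIs of VitA- DEN+WAD cells with at least 5000 UMIs. Ifi44 (1.996-fold) and Irf7 (1.94-fold, 64.1 and 33.1 CPM) lay just under 2-fold. Counting Lrat-positive cells only, 10 members were at least 2-fold higher and the median log2 ratio was 0.75, and Oasl1 was under 2-fold (log2 ratio 0.89).

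In the VitA+Col1a1+ cells the difference between DEN+WAD and chow was smaller and mixed. Of 32 members, 22 were higher in DEN+WAD, the median log2 ratio was 0.22 against -0.07 over all genes, and 1 was at least 2-fold higher and 2 at least 2-fold lower, beside 3.06% and 5.54% of all genes. The member past 2-fold upward was Zbp1, at 45.0 CPM in DEN+WAD and 16.9 in chow, 2.66-fold (2.19 to 3.26), which makes Zbp1 the only member at least 2-fold higher in both gates. Oas1a was at 9.64 and 26.8 CPM, 0.359-fold (0.306 to 0.425), so its difference ran against that in the VitA- cells. Mx1, with 98 and 9 UMIs, was at 0.446-fold with an interval from 0.226 to just above 1. The more abundant genes were moderately higher in DEN+WAD: Irf7 1.76-fold (87.7 and 50.0 CPM), Ifitm3 1.63-fold, Bst2 1.57-fold, Ifit3 1.54-fold (248 and 162 CPM), Rtp4 1.37-fold (214.6 and 156 CPM) and Isg15 1.23-fold, each with an interval above 1. Lower in DEN+WAD with an interval below 1 were Ifit3b (67 and 84.4 CPM, 0.793-fold), Parp14 (67.4 and 86.9 CPM, 0.775-fold), an ADP-ribosyltransferase, and Stat2 (39.5 and 47.7 CPM, 0.828-fold). Scaling by the trimmed mean of M-values moved the all-gene median by 0.19 and turned the split into 2 higher and 1 lower, with the members 0.30 above all genes either way.

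**Figure D2:**
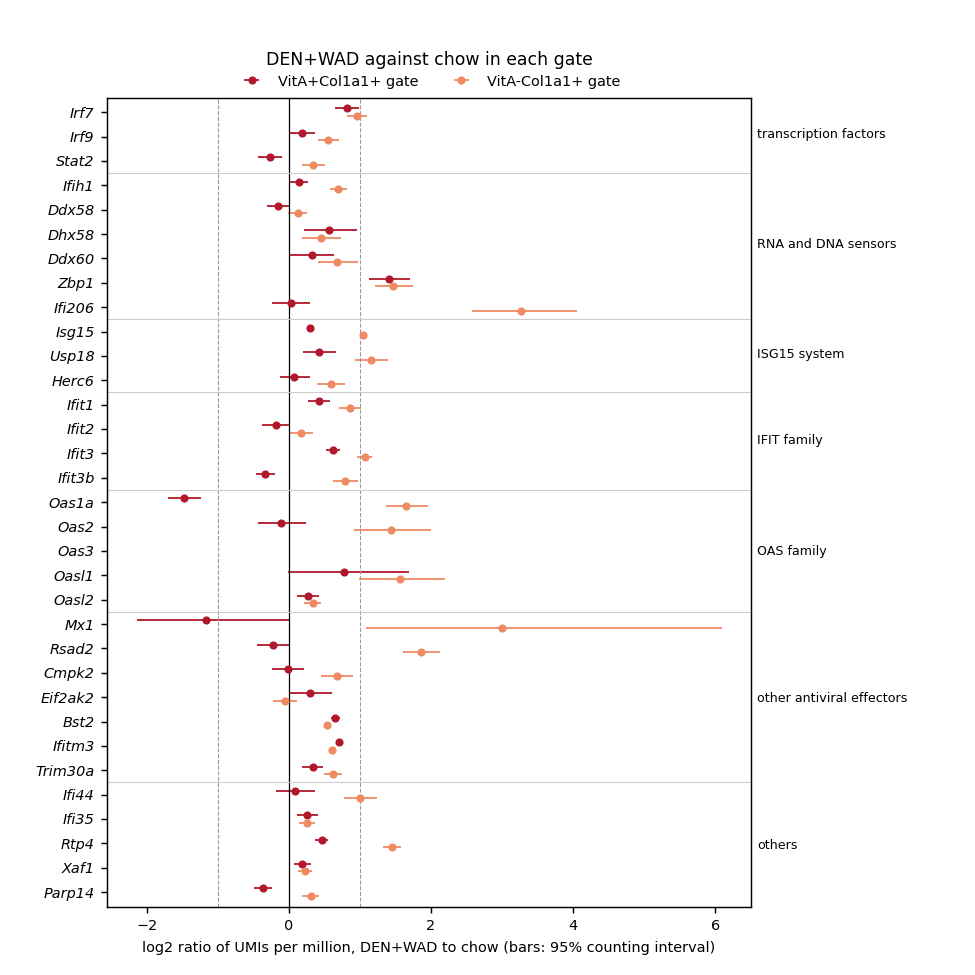
Log2 ratio of DEN+WAD to chow for each member in the VitA+Col1a1+ gate and the VitA-Col1a1+ gate, with 95% counting intervals as bars and dashed lines at 2-fold. The VitA- points lie above 0 except Eif2ak2, and the VitA+ points lie on both sides of 0, with Oas1a at -1.48 in VitA+ and 1.65 in VitA-.

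Among the comparisons made, that between the chow libraries had the largest median difference in the members. Relative to VitA+ chow, VitA- chow had a median log2 ratio of -0.82 over 32 members against 0.08 over all genes, with 0 members at least 2-fold higher and 12 at least 2-fold lower, beside 12.7% and 5.75% of all genes. By role the medians were -1.27 for the IFIT family, -1.13 for the ISG15 system, -1.12 for the OAS family, -0.89 for the sensors, -0.64 for the other antiviral effectors, -0.63 for the 5 other genes and -0.59 for the transcription factors. The 12 were Ifi206 (0.0576-fold), Mx1 (0.0911-fold, 2 against 9 UMIs), Oas2 (0.176-fold), Rtp4 (0.248-fold), Ifit3b (0.254-fold), Oas1a (0.271-fold), Rsad2 (0.339-fold), Ifit3 (0.340-fold), Isg15 (0.377-fold), Usp18 (0.456-fold), Ifih1 (0.480-fold) and Cmpk2 (0.493-fold), a mitochondrial nucleotide kinase. Ifit3b was at 84.4 CPM in VitA+ chow and 21.5 in VitA- chow, and Ifih1, the sensor of long double-stranded RNA, at 88.2 and 42.3 CPM. Eif2ak2 (1.65-fold, 1.32 to 2.08) and Bst2 (1.08-fold) were higher in VitA- chow. This comparison and the one between regimens in the VitA- gate share the VitA- chow library, so their values are not independent. In Lrat-positive cells only, 13 members were at least 2-fold lower, although these cells also differed in stellate and portal fibroblast markers, as given below.

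After DEN+WAD the gap between the gates was smaller. VitA- against VitA+ DEN+WAD had a median log2 ratio of -0.30 over 33 members against 0.11 over all genes, with 8 members higher, 1 at least 2-fold higher and 2 at least 2-fold lower, beside 12.8% and 1.74% of all genes. Oas1a was at 22.9 against 9.64 CPM, 2.37-fold (2.19 to 2.57). Ifit3 was at 0.464-fold and Rtp4 at 0.493-fold, and neither was past 2-fold in Lrat-positive cells only (log2 ratios -0.83 and -0.75). All 4 IFIT genes, all 3 genes of the ISG15 system, all 6 sensors and all 3 transcription factors were lower in VitA- than in VitA+ DEN+WAD. With trimmed-mean or median-of-ratios scaling, which moved the all-gene median by -0.20 and -0.17, 6 members were at least 2-fold lower, with the members 0.41 below all genes under each.

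Genes of dissociation stress and of other cells also differed between these libraries. The 7 stress genes (Fos, Jun, Hspa1a and others) summed to 24068 CPM in VitA+ DEN+WAD, 27278 in VitA+ chow, 17419 in VitA- DEN+WAD and 11478 in VitA- chow, the library with the lowest member levels, with all 7 detected in each. Between the VitA+ libraries the sum of the stress genes was lower in DEN+WAD, where that of the members was higher. Fos (4361 against 4117 CPM) and Junb (4026 against 3526 CPM) were higher in DEN+WAD, while Jun, Egr1, Hspa1a, Hspa1b and Atf3 were lower. The 10 stellate markers summed to 49449, 45281, 26062 and 12491 CPM in the same order, and the 5 portal fibroblast markers to 15.4, 12.7, 105 and 195 CPM. The 7 endothelial markers summed to 245, 462, 1483 and 480 CPM and the 4 hepatocyte markers to 111, 23.1, 399 and 29.5 CPM, so that both were higher in VitA- DEN+WAD than in VitA- chow, as the members were. In VitA- DEN+WAD, 14 members were higher and 18 lower in Pecam1-positive than in Lrat-positive cells. Rsad2, Ifi44, Oasl1 and Ifit2 were among the higher and Isg15, Ifit3, Ifit3b and Ifitm3 among the lower, as described further on. Within Lrat-positive cells the stress genes were still at 24268, 27584.5, 19093 and 11561 CPM. The stellate markers of these cells summed to 50385, 47388.5, 36030 and 14761 CPM, and the portal fibroblast markers to 14.0, 9.65, 61.5 and 158 CPM. The part of stress and of cell makeup in the member levels was not tested. Plasmacytoid dendritic cell markers, of a main interferon-producing cell, summed to at most 0.315 CPM in the 4 Col1a1+ libraries.

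The library labelled VitA-Col1a1- was compared with VitA-Col1a1+ cells of the same regimen. Its median log2 ratio was 0.33 over 33 members against 0.01 over all genes, with 25 members higher, 5 at least 2-fold higher and 2 at least 2-fold lower, beside 8.0% and 7.14% of all genes. Oas3, the OAS enzyme that makes the longest activator chains, had 9.50 CPM (1004 UMIs) there against 0.105 CPM (5 UMIs), 90.5-fold (38.7 to 279), and 9, 0 and 0 UMIs in the other 3 libraries. Mx1 was at 4.61 against 1.07 CPM (4.30-fold), Oasl1 at 18.3 against 5.33 (3.42-fold), Oas2 at 15.2 against 5.94 (2.56-fold) and Zbp1 at 51.4 against 23.8 (2.16-fold). Oas1a, at 7.21 against 22.9 CPM (0.315-fold), and Isg15, at 447 against 999.7 CPM (0.448-fold), were lower. In Lrat-positive cells only, 3 members were at least 2-fold higher and 1 lower, Oas3 was at a log2 ratio of 2.25, and Mx1 (0.76), Oasl1 (0.79) and Isg15 (-0.75) were no longer past 2-fold. Hepatocyte markers summed to 4649 CPM in this library and 399 CPM in VitA-Col1a1+ DEN+WAD, and their part was not tested.

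Cells were then split by marker genes, taking as positive those with at least 2 UMIs of Lrat (stellate), Pecam1 (endothelial) or C1qa (macrophage) and 0 UMIs of the other two. Lrat-positive cells were 95.1% of VitA+ DEN+WAD, 90.0% of VitA+ chow, 57.9% of VitA- DEN+WAD and 59.6% of VitA- chow. They made up 27.5% of the library labelled VitA-Col1a1-. C1qa-positive cells were found only in that library, where they were 712 cells (7.21%). The summed member level in Lrat-positive cells was 8001, 5746, 6376, 3715 and 6646 CPM in that order of libraries, with VitA- chow again lowest. In Pecam1-positive cells it was 3549 CPM in VitA+ DEN+WAD, 4110 in VitA- DEN+WAD, 2577 in VitA- chow (32 cells) and 4534 in the library labelled VitA-Col1a1-, below the Lrat-positive cells of each. The VitA+ DEN+WAD value depended on the rule, and was 5652 CPM in cells with at least 1 Pecam1 UMI and any count of the other markers. VitA+ chow had 9 Pecam1-positive cells, too few for a level. C1qa-positive cells had 3566 CPM.

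The 3 cell classes differed in which members were high. In the library labelled VitA-Col1a1-, Isg15 was at 727 CPM in Lrat-positive, 286 in Pecam1-positive and 112 in C1qa-positive cells, and Ifit3 at 132, 58.7 and 41.5 CPM, both highest in the stellate class. Rsad2 was the reverse, at 15.8, 119 and 108 CPM. Ifi44 was at 24.9, 124 and 28.3 CPM, highest in the endothelial class, and Ifit2 at 25.9, 94.0 and 44.2 CPM likewise. Irf7 was at 92.4, 89.1 and 280.0 CPM, Oasl1 at 4.48, 12.4 and 51.8, Mx1 at 1.42, 0.851 and 16.4 and Oas3 at 0.333, 0.255 and 41.8 CPM, all highest in the macrophage class.

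Pecam1-positive against Lrat-positive cells of that library had a median log2 ratio of -0.18 over the members (0.04 over all genes), with 5 members at least 2-fold higher and 5 lower, beside 14.9% and 17.9% of all genes. The 5 higher were Rsad2 (7.54-fold, 6.81 to 8.35), Ifi44 (4.97-fold), Ifit2 (3.63-fold), Oasl1 (2.77-fold) and Cmpk2 (2.15-fold), and the 5 lower were Oas2, Zbp1, Isg15, Ifit3 and Ifitm3 (0.375- to 0.491-fold). The same split of VitA-Col1a1+ DEN+WAD cells gave 7 higher and 4 lower, beside 19.9% and 18.7% of all genes. There Rsad2 was at 7.36-fold (6.49 to 8.35), Oasl1 at 5.96-fold, Ifi44 at 5.48-fold and Ifit2 at 2.42-fold, while Ifit3 was at 0.341-fold, Isg15 at 0.370-fold, Ifit3b at 0.447-fold and Ifitm3 at 0.466-fold. Both libraries thus placed Rsad2, Ifi44, Ifit2 and Oasl1 higher in endothelial than in stellate cells, and Isg15, Ifit3 and Ifitm3 lower. Shares of genes past 2-fold were close to the background in these class comparisons, so the count of members is not a result about the list.

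C1qa-positive against Lrat-positive cells had a median log2 ratio of 0.14 over the members and -0.40 over all genes, with 8 members at least 2-fold higher and 5 lower, beside 12.7% and 31.6% of all genes. Oas3 was at 126-fold (69.4 to 253), Oasl1 at 11.6-fold, Mx1 at 11.5-fold (8.26 to 16.3), Rsad2 at 6.80-fold and Irf7 at 3.03-fold, followed by Dhx58 (2.71-fold), which tunes RNA sensing, Ddx60 (2.08-fold) and Oas1a (2.00-fold). Isg15 was at 0.154-fold, Ifit1 at 0.176-fold, Ifit3b at 0.281-fold, Ifit3 at 0.314-fold and Ifitm3 at 0.373-fold. Macrophage markers summed to 17244 CPM in the C1qa-positive class and 60.7 CPM in the Lrat-positive one. Hepatocyte markers summed to 4359 CPM in the C1qa-positive, 960 in the Lrat-positive and 689 CPM in the Pecam1-positive class, which shows RNA of another cell type in all 3, and their part was not tested.

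**Figure D3:**
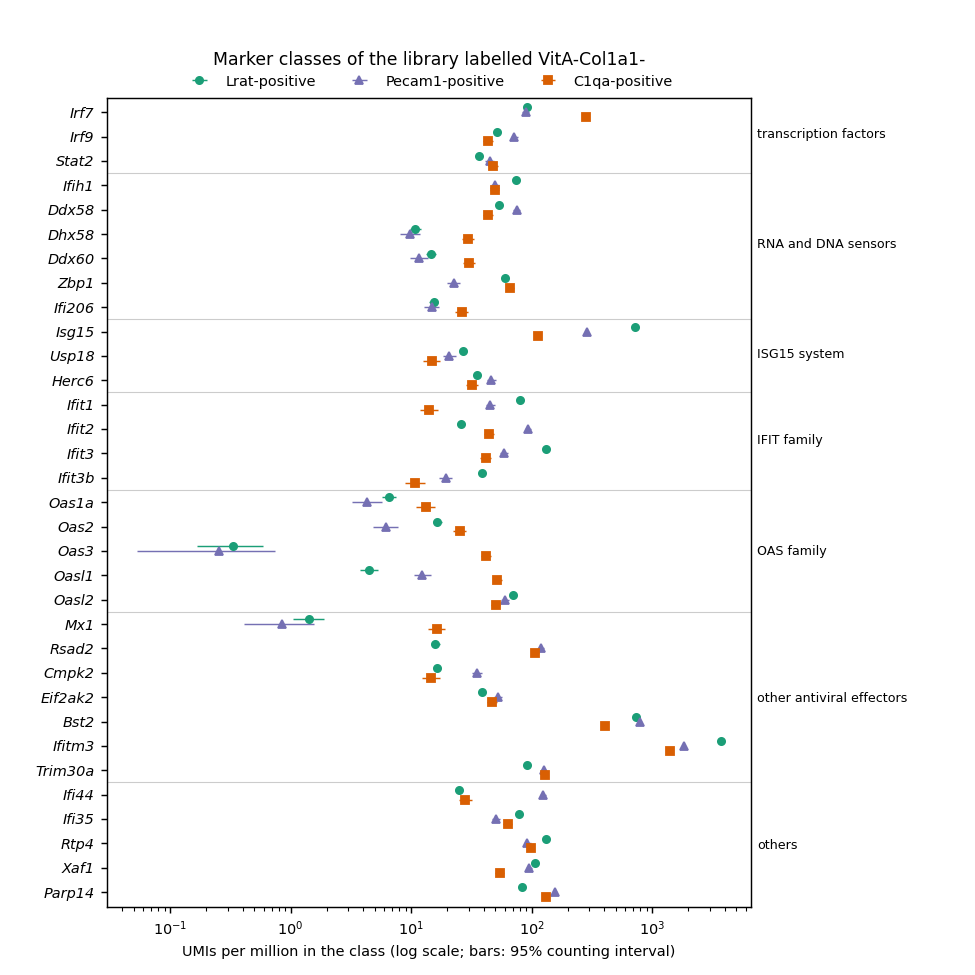
Level of each member (CPM, log axis) in Lrat-positive (2716), Pecam1-positive (1434) and C1qa-positive (712) cells of the library labelled VitA-Col1a1-, with 1 point per class. Isg15 and the points of Ifit1 and Ifit3 are highest in Lrat-positive cells, Rsad2 and Ifi44 are higher in Pecam1-positive than in Lrat-positive cells, and Oas3, Oasl1 and Mx1 are highest in C1qa-positive cells.

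Each cell was next thinned at random to 2000 UMIs so that cells of unlike depth could be compared, and a cell with at least 5 members detected was counted as having many. The share of such cells was 52.1% (51.1 to 53.1) in VitA+ DEN+WAD (5372 of 10309), 40.8% in VitA+ chow (104 of 255), 34% in VitA- DEN+WAD (891 of 2623), 17.2% in VitA- chow (111 of 647) and 42.7% in the library labelled VitA-Col1a1- (3604 of 8431). The order of the 4 Col1a1+ libraries was that of the summed levels without Ifitm3 and Bst2. Shallower cells were left out, 172, 4, 106, 21 and 1439 in that order, and without thinning the shares were 97.6, 98.1, 94.2, 93 and 78.3%. In Lrat-positive cells the thinned shares were 52.6, 42.2, 38.2, 18.1 and 46.4%. Pecam1-positive cells gave 36.2% in VitA+ DEN+WAD, 34.3% in VitA- DEN+WAD, 21.9% in VitA- chow and 46.1% in the library labelled VitA-Col1a1-, and C1qa-positive cells 39.9%. Cells with many members were found in every class given, so no class gave a background share. Expression of these genes at rest and a response to interferon cannot be told apart by these shares. Without Ifitm3 and Bst2 the shares of the libraries ran from 6.96% in VitA- chow to 26.1% in VitA+ DEN+WAD.

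**Figure D4:**
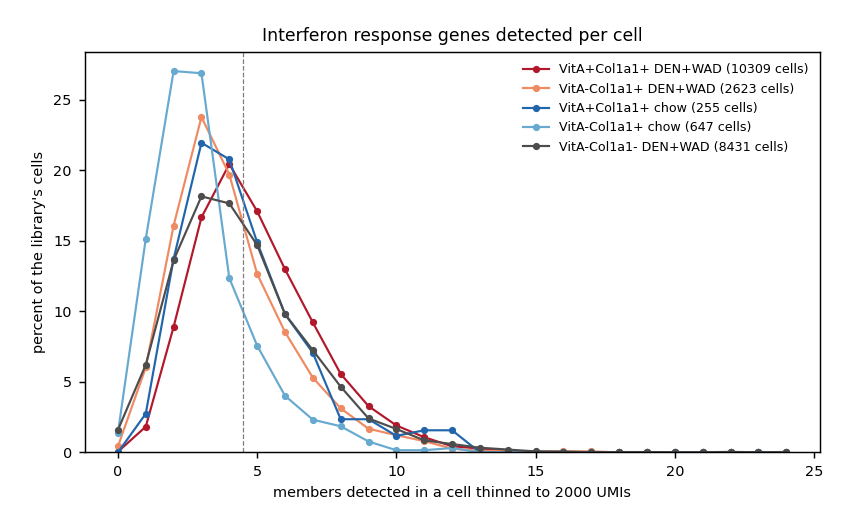
Percent of cells by the number of members detected after thinning to 2000 UMIs, 1 line per library, with a dashed line at 5 members. The VitA-Col1a1+ chow line peaks furthest left, with a median of 3 members, and the VitA+Col1a1+ DEN+WAD line furthest right, with a median of 5.

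Cells with most of the members were few, and none had all 33 at 5000 UMIs. At that depth, 20 or more members were found in 41 of 10213 VitA+ DEN+WAD cells (0.401%), 1 of 254 VitA+ chow cells (0.394%), 10 of 2572 VitA- DEN+WAD cells (0.389%), 51 of 7323 cells of the library labelled VitA-Col1a1- (0.696%) and 0 of 643 VitA- chow cells, for which 3 counts would be a share of 0.467%. The intervals of the 4 Col1a1+ libraries overlapped. Without these cells and all cells under 5000 UMIs, the median log2 ratio of the members between the regimens was 0.62 in the VitA- gate and 0.25 in the VitA+ gate, beside 0.69 and 0.22 over all cells. The 41 cells of VitA+ DEN+WAD were all Lrat-positive. Of the 10 in VitA- DEN+WAD, 3 were Lrat-positive, 3 Pecam1-positive and 4 in no class, and of the 51 in the library labelled VitA-Col1a1-, 9 were Lrat-positive, 10 Pecam1-positive, 4 C1qa-positive and 28 in no class.

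The cells with 20 or more members held unequal parts of each gene, counted over cells with at least 5000 UMIs. In VitA+ DEN+WAD they had 0.386% of all UMIs but 54.1% of those of Mx1, 10.6% of Rsad2, 4.99% of Ifit1 and 1.28% of Isg15. In VitA- DEN+WAD they had 0.424% of all UMIs but 58.8% of Mx1, 30.4% of Oasl1, 19.9% of Rsad2, 13.6% of Ifit1, 10.4% of Ifit3 and 0.718% of Ifitm3. Most Mx1 UMIs thus lay in these cells, and most Rsad2 UMIs lay in others. The cells were chosen by their members, so these values are a description.

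Co-occurrence was described within the 10213 VitA+ DEN+WAD cells with at least 5000 UMIs, thinned to that depth, where the median was 8 members per cell. For 481 pairs of members, the number of cells with both was divided by the number the 2 shares give when multiplied. The ratio had a median of 1.17 (5th to 95th percentile 1.0 to 1.67) and was over 1 for 469 pairs. By the correlation of detection over cells, the closest pairs were those of Ifit1, Ifit3 and Ifit3b: Ifit1 and Ifit3 were found together in 1655 cells (1.36 times the product), Ifit3 and Ifit3b in 1729 (1.33 times) and Ifit1 and Ifit3b in 843 (1.62 times), with correlations of 0.207, 0.200 and 0.182. Near-identical sequence can link Ifit3 with Ifit3b, since reads can be given to either copy. Rsad2 and Cmpk2, neighbors within 37.1 kb on chromosome 12, were together in 158 cells, 1.75 times the product. The median correlation over pairs was 0.040, and such weak values in sparse counts are no finding by themselves.

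Members differed in how closely they followed the others. Over the same cells, which come from 1 library, the correlation between detection of a member and the number of other members was 0.337 for Ifit3, 0.326 for Ifit1, 0.297 for Ifit3b, 0.259 for Oasl2, 0.248 for Rtp4, 0.239 for Usp18 and 0.237 for Xaf1. It was 0.051 for Ifit2, although that gene lies beside the other IFIT genes, and 0.020 for Ifitm3, which was detected in 99.9% of cells and so could hardly vary. The median over the members was 0.148, against -0.002 over 10709 other genes.

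The cells were also split by Isg15 and Ifit3 alone, giving 5062 cells with both, 747 with neither and 4404 with one. All 30 other members with a ratio were higher in cells with both, against 36.6% of the other genes, and 13 were at least 2-fold higher, beside 0.640% of the other genes. The median log2 ratio was 0.87 for the members and -0.08 for the others. Ifit3b was at 96.8 against 21.7 CPM (4.47-fold, 3.58 to 5.64) and Ifit1 at 108 against 26.2 CPM (4.13-fold, 3.37 to 5.10). Ifi206 (3.72-fold), Oas1a (3.56-fold), Usp18 (3.14-fold), Oasl1 (2.70-fold), Oas2 (2.51-fold), Zbp1 (2.36-fold), Irf7 (2.33-fold), Xaf1 (2.11-fold), Rtp4 (2.04-fold) and Oasl2 (2.04-fold) followed, and Mx1, with 32 against 1 UMIs, was at 4.72-fold with an interval of 0.789 to 192. The smallest ratios were those of Eif2ak2 (1.19-fold, 0.925 to 1.55), Ifit2 (1.26-fold), Irf9 (1.31-fold) and Ifitm3 (1.32-fold).

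The cells with neither gene differed in other ways too. They had 85.3% Lrat-positive cells against 98.4%, a median of 12818 against 13448 UMIs, endothelial markers at 1098 against 171 CPM and hepatocyte markers at 282 against 4.70 CPM, while the stress genes were at 24468 against 24876 CPM. Within Lrat-positive cells only (4982 and 637 cells), all 30 members were again higher, 14 at least 2-fold, with a median log2 ratio of 0.94, and 1.13% of the other genes were at least 2-fold higher.

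**Figure D5:**
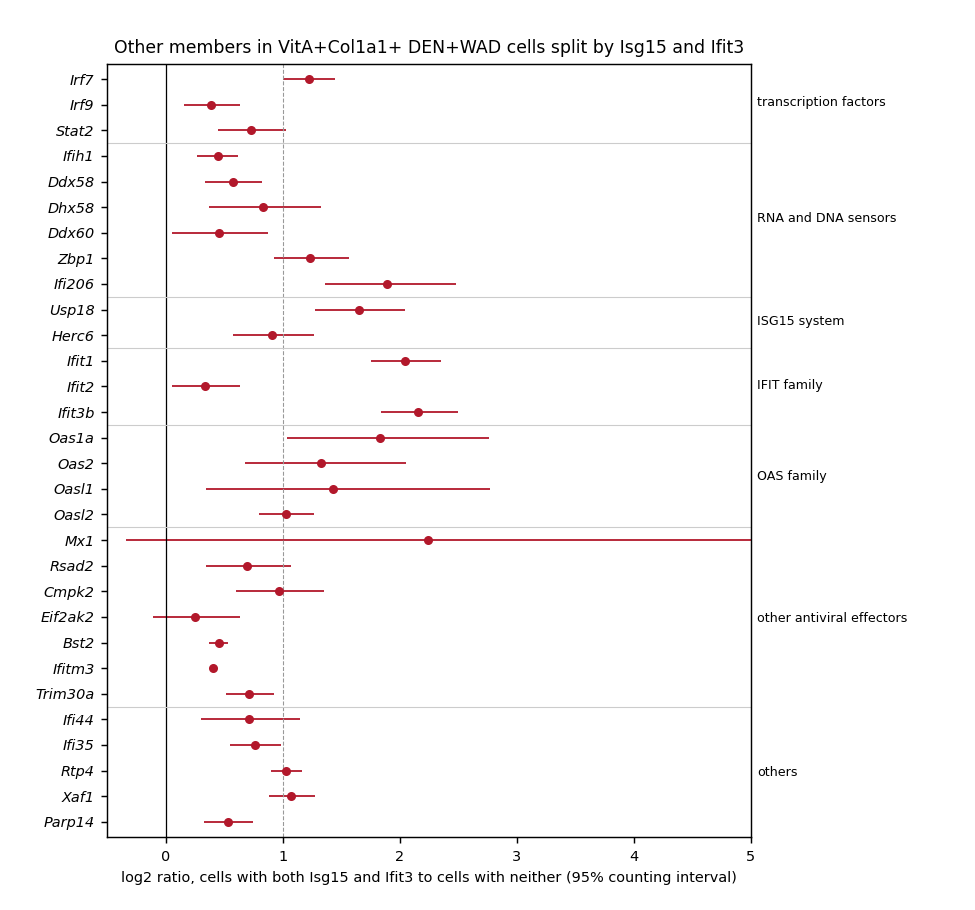
Log2 ratio of the 30 other members in VitA+Col1a1+ DEN+WAD cells with both Isg15 and Ifit3 (5062) against cells with neither (747), with 95% counting intervals and a dashed line at 2-fold; the upper end of the Mx1 interval runs past the axis. All 30 points lie above 0, from 0.25 for Eif2ak2 to 2.16 for Ifit3b and 2.24 for Mx1.

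Genes outside the list that followed the number of members in the same cells were again mostly interferon genes. Those with the largest correlations over cells included Phf11d (0.220), Iigp1 (0.217), Rnf213 (0.217), Ifi47 (0.202), Gbp7 (0.196), Gm4951, Ifi203, Igtp, Gbp3, Irgm2, Slfn2, Tap1, Slfn5 and Trim30d (0.147). Of the 15 highest, 11 were in a list of 78 other interferon pathway genes, while 10709 genes were ranked. That list was chosen with earlier results of these data known, so the count is a description. Ifi27, also in the list, was among the genes with the lowest correlations (-0.071). Iigp1, Igtp, Irgm2, Gbp3 and Gbp7 encode GTPases that attack pathogen vacuoles and are known mainly as targets of interferon gamma, and Tap1 feeds peptides to MHC class I.

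Among the 78 other pathway genes, RNA of the ligands was almost absent. Ifna1, Ifna2, Ifna4, Ifne, Ifnl2 and Ifnl3 had 0 UMIs in every library, and Ifnb1 had 4 UMIs, all in VitA- DEN+WAD. Ifng, made by T and NK cells, had 211 UMIs in the library labelled VitA-Col1a1- and 0 in the others. The receptor chain Ifnar2 was at 401 CPM in VitA+ DEN+WAD, 444 in VitA+ chow, 313 in VitA- DEN+WAD, 198 in VitA- chow and again 198 CPM in the library labelled VitA-Col1a1-, so it too was lower in the VitA- libraries. Ifnar1 was at 25.5, 38.6, 25.1, 30.3 and 58.2 CPM in that order, highest in the library labelled VitA-Col1a1-.

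In VitA+ cells, 5 of 65 pathway genes with a ratio were at least 2-fold higher after DEN+WAD and 1 lower with an interval apart from 1, and in VitA- cells 9 of 67 were higher and 0 lower. Over all genes, without a condition on the interval, 3.06% were at least 2-fold higher and 5.54% lower in VitA+, and 6.32% higher and 5.31% lower in VitA-. The interferon gamma target Cxcl9, a chemokine for T cells, had the largest difference in both: 44.5 against 1.30 CPM in VitA+ (34.2-fold, 17.3 to 79.3) and 107 against 4.93 CPM in VitA- (21.8-fold, 17.3 to 27.8). Slfn2 (10.1- and 3.62-fold), Cxcl10 (2.65- and 2.91-fold) and Trim30d (2.42- and 3.02-fold) were also higher in both. Oas1g, the near copy of Oas1a, was at 0.285-fold in VitA+ and 2.70-fold in VitA-, the same directions as Oas1a, and the counts of the pair cannot be told apart. The others were Irf5 (2.02-fold) in VitA+, and Ifnlr1 (3.23-fold, 41 against 4 UMIs), Ifi204 (2.46-fold), Nlrc5 (2.19-fold) and B2m (2.17-fold) in VitA-. B2m, the light chain of MHC class I, was at 4685 and 2157 CPM there.

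Between the chow gates, 3 of 63 pathway genes were at least 2-fold higher in VitA- and 11 lower, beside 12.7% and 5.75% of all genes. Lower were Oas1g (0.225-fold), Nlrc5 (0.328-fold), Lgals3bp (0.355-fold), Ifi204 (0.368-fold), B2m (0.383-fold), Phf11b (0.406-fold), Il10rb (0.431-fold) and Ifnar2 (0.446-fold) among others, and higher were Irf5 (4.43-fold), Cxcl9 (3.79-fold) and Ifngr1 (2.17-fold). Between the DEN+WAD gates 6 of 68 were higher in VitA- and 0 lower, beside 12.8% and 1.74% of all genes, so the count higher was not above the background. They were Ifnlr1 at 9.22-fold, Epsti1 at 4.52-fold, Cxcl9 at 2.41-fold, Oas1g at 2.13-fold and Socs1, a brake on the receptor, at 2.05-fold, and Ifnb1 at 4 against 0 UMIs. In the library labelled VitA-Col1a1-, 12 of 71 were higher than in VitA-Col1a1+ and 2 lower, beside 8.0% and 7.14% of all genes. They included genes of immune cells: Ptpn6 (111-fold), Ciita (95.7-fold), Epsti1 (54.5-fold), Slfn2 (7.02-fold), Irf5 (5.23-fold) and the RNA receptor Tlr7, with 1262 against 0 UMIs, at least 190-fold when the 0 is set to 3 UMIs per library. Macrophage and T-cell markers were higher there as well, at 3677 and 43.7 CPM against 0.63 and 0.126 CPM.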

How the data were processed

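Cells were sorted, captured with 10x Genomics 3' chemistry (the kit version is given as v3.1 in one label field and v2 in another) and sequenced. The authors made the deposited counts, whole UMI counts per gene and cell, with Cell Ranger on mm10. The labels name version 3.1.0, while the file headers give 3.1.0 for 4 libraries and 6.1.2 for the library labelled VitA-Col1a1-, and this difference cannot be told apart from that group. All deposited barcodes were used, and no doublet caller was run.

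A gene's CPM is its UMIs in all cells of a library over that library's total, scaled to 1000000. Levels carry exact Poisson 95% intervals, ratios exact conditional binomial ones and shares exact Clopper-Pearson ones. A 0 was set to 3 UMIs per library as its limit. No ratio was given where both counts were at most 3, or where that limit lay above the level of the other library. Each group had 1 library, so past 2-fold is a rule of size and not a test. All-gene values cover genes with a mean of at least 2 CPM. Cells were thinned (seed 7) to 2000 UMIs for shares and 5000 UMIs for co-occurrence. The members named were those past 2-fold with an interval that excludes 1, at most 10 in each direction, and the most abundant of each role, with at most 8 pathway genes in each direction and the 15 genes following the members most closely, of which 1 is not reported here. Members just under 2-fold, those with opposite directions in the gates and Ifit2 in the marker classes were named after their values were seen. The members and lists were chosen with earlier results of these data known. The steps were tested on simulated data. Gene positions came from the mm10 annotation, which matched 99.6% of gene IDs. Python 3.11.15, numpy 2.4.6, scipy 1.17.1, pandas 2.3.3 and edgeR 4.0.16 (scaling factors only) were used.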

Additional observations from a re-analysis of the deposited data

Results flagged for a closer look

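For 4 members the DEN+WAD to chow ratio pointed in opposite directions in the VitA- and VitA+ gates, with higher levels after DEN+WAD in VitA- and lower levels in VitA+. The gap between the log2 ratios was 3.13 for Oas1a, 1.13 for Ifit3b, 0.67 for Parp14 and 0.61 for Stat2. With 1 library per group the difference was not tested. Oas1a and Ifit3b have near-identical copies, so their counts are uncertain.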

How the results depend on the processing

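No paired analysis was possible because each group was 1 library, and for the same reason no replicate could be left out. Directions of the 5 comparison medians held under every alternative run. Under trimmed-mean (TMM) scaling the VitA+ regimen comparison had a median log2 ratio of 0.41 with 2 members at least 2-fold higher and 1 lower, and the DEN+WAD gate comparison -0.50 with 6 lower. Under median-of-ratios scaling the latter was -0.47 with 6 lower. In Lrat-positive cells the VitA+ regimen comparison had 2 members higher, the DEN+WAD gate comparison 0 lower, and the labelled VitA-Col1a1- comparison 0.25 with 3 higher and 1 lower, where Ifitm3 reversed to 0.11. Without cells with 5 or more members, the VitA+ regimen comparison had 2 higher and 1 lower with Irf9 reversed to -0.035, the VitA- one a median of 0.55, the DEN+WAD gate comparison 2 higher and 6 lower, and the labelled VitA-Col1a1- comparison 0.25 with Oasl2 reversed to -0.010. With a mean over cells the DEN+WAD gate comparison had 2 higher, and Rtp4 in the labelled VitA-Col1a1- comparison reversed to -0.0060. With at least 10 CPM, 1 member was lower in the VitA+ regimen comparison, and the labelled VitA-Col1a1- comparison had 0.25 with 1 higher, as fewer genes were tested. The cause of the other shifts was not tested. Without Ifitm3 and Bst2 the summed levels were 3207, 2158, 2668, 1204 and 1922 CPM, in the order VitA+ DEN+WAD, VitA- DEN+WAD, VitA+ chow, VitA- chow and labelled VitA-Col1a1-. In that order, shares of cells were 89.2, 77.5, 83.5, 56.4 and 78.6% for at least 3 members, 12.8, 7.47, 9.02, 3.25 and 11% for at least 8, 91.0, 74.5, 86.6, 52.9 and 82.1% at 5000 UMIs, 97.6, 94.2, 98.1, 93 and 78.3% without thinning, and 26.1, 15.5, 20, 6.96 and 20.4% without Ifitm3 and Bst2, and a second draw gave 53.6% in VitA+ DEN+WAD. Chosen after seeing the data were the cuts of 12 members (0.970, 0.648, 1.57, 0.309 and 1.40%) and of 20 at 5000 UMIs (0.401, 0.389, 0.394, 0 and 0.696%), the removal of the latter cells together with those under 5000 UMIs, the Lrat-positive split by Isg15 and Ifit3, and a background over the 4 Col1a1+ libraries. With at least 1 UMI and overlap allowed, Lrat-positive sums were 7973, 6168, 5682 and 6151 CPM (VitA- chow within its interval). Pecam1-positive sums under this rule were 5652, 4799, 4044.5, 2866 and 4740.5 CPM, with 21 cells in VitA+ chow, and the C1qa-positive sum was 4777 CPM. With at least 2 UMIs and overlap allowed, Lrat-positive sums were 7986 in VitA+ DEN+WAD, 5682 in VitA+ chow and 6406 CPM in labelled VitA-Col1a1-, Pecam1-positive sums 4750.5 in VitA+ DEN+WAD, 4369 in VitA- DEN+WAD and 4741 CPM in labelled VitA-Col1a1-, and C1qa-positive 4293 CPM. With 1 mismatch, 92.3% of member promoters held the motif, against 38.9% of all genes.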
